A study of Rattus norvegicus with 7 samples.

Results

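The genes described here encode 3 machines of the inner mitochondrial membrane, respiratory complex III, respiratory complex IV and ATP synthase, together with cytochrome c and several assembly factors of complex IV. They were chosen by symbol, as all array genes whose symbols start with Uqcr, Cox4, Cox5, Cox6, Cox7, Cox8, Cox10, Cox11, Cox15, Cox17 or Atp5, together with Cyc1, Cycs and Surf1. The rule found 46 genes on 60 probes, of 15443 named genes and 30367 probes, and 1 of the 46 is the pseudogene Cox6c-ps1. Of these, 45 had a probe well above background on at least 3 of the 7 arrays, and the testis isoform gene Cox8c did not on any array. Cyc1, Cox7a1, Cox7b2, Cox10, Atp5mc3 and Atp5mpl had no matched probe and were not analysed here.

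RNA came from ground cerebellum (20 mg) of female Wistar rat pups aged 21 days and was hybridised to 1-colour Agilent arrays. Mothers of the 4 CTRL pups ate standard chow, and mothers of the 3 MDD pups (methyl donor deficiency) ate a diet short of folate and vitamin B12 with less choline, from 1 month before pregnancy until weaning. The labels name no dam or litter for any pup, so a p-value reflects the spread between pups, some of which may share a mother. Levels are log2 intensities relative to the 75th percentile of the same array, and a change is the MDD mean minus the CTRL mean, tested with limma and Benjamini-Hochberg adjustment over 19991 genes and unnamed probes at a threshold of 0.05. Since folate and vitamin B12 carry and transfer methyl groups, the comparison asks what an early shortage of them does to cerebellar transcripts.

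Complex III passes electrons from ubiquinol to cytochrome c, a small soluble carrier, and complex IV (cytochrome c oxidase) passes them from cytochrome c to oxygen. Both pump protons, and ATP synthase lets the protons flow back through its membrane part, Fo, to drive ATP synthesis in its catalytic part, F1. Neurons depend heavily on this supply to restore ion gradients after firing. Most subunits are encoded in the nucleus, and the few encoded in mitochondrial DNA had no matched probe and were not analysed here.

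Promoters were examined because many of these genes moved together and because NRF1, GABP (nuclear respiratory factor 2) and YY1 are known regulators of respiratory genes. RefSeq promoter sequences of the assembly GRCr8, each running from 250 bases before to 50 bases after the gene's start, matched 39 of the 45 genes other than the pseudogene, and 27457 promoters served as the comparison. Both strands were searched. The letters GCGCANGCG of NRF1 occurred in 9 of 39 (23.1%, against 6.26% of all promoters), CCGGAAGT of GABP in 8 (20.5% against 4.01%), AANATGGCG of YY1 in 5 (12.8% against 3.33%) and GGGCGG of SP factors in 15 (38.5% against 34.9%). A longer NRF1 form with a further C at its end, which had been searched first, occurred in 6 (15.4% against 4.71%). Motifs were counted separately, so overlapping matches count for each. The median GC content was 56.0% for the genes and 52.3% for all promoters. Among 21 genes called higher in MDD, 6 held the NRF1 letters, 5 GABP, 4 YY1 and 9 SP. Among 17 that were not called, 3 held NRF1, 3 GABP, 1 YY1 and 5 SP. The uncalled genes with NRF1 letters were Cycs, Cox15 and Atp5f1c. A link between letters and changes was not tested. A match is a description of letters only. The 250 upstream bases are shown for both core proteins of complex III, whose changes had opposite signs, for a complex IV subunit with a pair of GABP matches and for the stalk subunit OSCP of ATP synthase. Capitals mark NRF1 matches in Uqcrc1, chr8:118467973-118468222 (plus strand), and in Atp5po, chr11:44657484-44657733 (minus strand), and the GABP matches in Cox8a, chr1:213833624-213833873 (minus strand), while Uqcrc2, chr1:184598990-184599239 (plus strand), held none of the NRF1, GABP or YY1 letters in this window.
Uqcrc1: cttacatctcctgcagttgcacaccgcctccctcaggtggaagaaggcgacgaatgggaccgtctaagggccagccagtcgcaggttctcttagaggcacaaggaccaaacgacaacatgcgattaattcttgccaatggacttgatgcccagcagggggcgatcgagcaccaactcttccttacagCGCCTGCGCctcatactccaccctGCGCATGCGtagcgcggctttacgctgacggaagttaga
Uqcrc2: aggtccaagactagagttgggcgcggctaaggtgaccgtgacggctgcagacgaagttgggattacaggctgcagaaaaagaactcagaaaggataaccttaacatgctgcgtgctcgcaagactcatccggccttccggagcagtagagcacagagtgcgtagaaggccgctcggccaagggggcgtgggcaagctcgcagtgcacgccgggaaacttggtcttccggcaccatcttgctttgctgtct
Cox8a: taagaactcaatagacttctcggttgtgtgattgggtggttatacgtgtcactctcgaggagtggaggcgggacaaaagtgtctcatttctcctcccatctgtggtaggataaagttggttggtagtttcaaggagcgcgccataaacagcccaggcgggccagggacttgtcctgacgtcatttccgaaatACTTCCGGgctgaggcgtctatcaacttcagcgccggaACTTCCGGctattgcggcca
Atp5po: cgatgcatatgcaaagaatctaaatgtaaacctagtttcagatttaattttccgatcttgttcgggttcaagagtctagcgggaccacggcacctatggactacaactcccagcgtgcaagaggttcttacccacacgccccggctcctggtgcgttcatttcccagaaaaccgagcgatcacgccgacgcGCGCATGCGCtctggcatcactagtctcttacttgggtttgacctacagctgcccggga

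On each array 74.1% to 79.6% of spots passed the scanner's test for being well above background, 0 were saturated, and the 75th percentile was 1140 to 2105 intensity units. The number of arrays limits the precision. Granule neuron (11 of 11) and Purkinje cell (9 of 9) markers were measured. One array stood apart for fast skeletal muscle genes, which were examined after the level of Cox8b there had been seen. All 9 such genes on the array, of 10 listed, were highest in CTRL 3. For the 6 of them that were well above background on all 7 arrays, CTRL 3 exceeded the next highest array by 1.47 to 3.90 on the log2 scale. Atp2a1, the calcium pump of fast muscle, stood at 0.81 in CTRL 3 against -2.94 at most elsewhere, and Tnnt3, a fast troponin, at -1.04 against -4.94. The other 3 were well above background on CTRL 3 but not on every array (Actn3 on 6, Ckm on 2 and Myh4 on 1), so no gap is given for them. Of the 45 measured genes, only Cox8b was highest of all 7 arrays in CTRL 3.

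By limma with Benjamini-Hochberg adjustment, 27 of the 45 measured genes were higher in MDD, 0 were lower and 18 were not called, against a background of 12.7% higher and 7.72% lower (20.4% in either direction) over all features. Their median log2 change was 0.57, with a range from -0.31 to 1.47, where the median over all features was -0.03. The mean was higher in MDD for 41 of 45 (47.5% of all features). Groups did not overlap for 33 genes that were higher (20.1% of all features) and for 1 that was lower, Uqcrc2 (3276 of 19991 features). Of the called genes, 6 had changed at least 2-fold (2.09% of all features). By structure, 4 of 9 genes of complex III and cytochrome c rose, 9 of 15 complex IV subunits, 1 of 4 complex IV assembly factors, 4 of 5 of the F1 part and 8 of 11 of the Fo part and its regulators. The Cox6c pseudogene rose as well. Because whole cerebellum was ground, fewer cells of a type and less RNA per cell cannot be told apart, and the same holds for more.

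**Figure D1:**
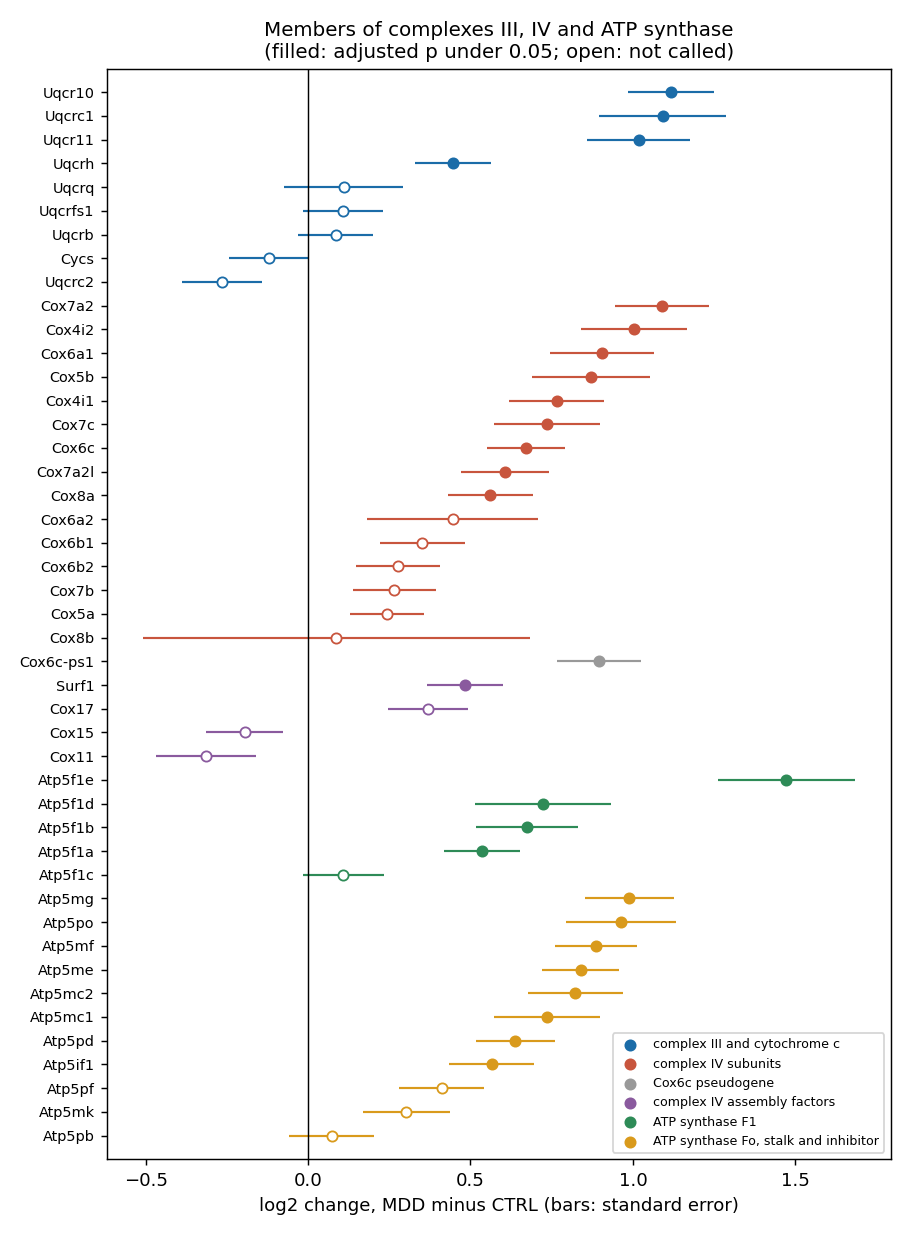
Log2 change, MDD minus CTRL, of the 45 measured genes on the horizontal axis, with standard errors as bars, coloured by structure, filled where limma's adjusted p was under 0.05 and open otherwise. The 27 filled points all lie to the right of 0, and Atp5f1e has the highest change, 1.47.

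The number called depended on how signal was made comparable between arrays. With quantile normalization 10 members were higher and 2 lower (background 11% and 7%), and the median change was 0.20. From the authors' deposited table, 13 were higher and 3 lower (12.0% and 8.85%), with a median of 0.19. In a further treatment, the dependence of each array on gene length and signal was taken out by loess (the trend removed). There 8 were higher and 1 lower, with a median of 0.05. The shares beside them, 6.58% and 4.70%, are of 11965 named genes, without the unnamed probes. These genes are short, with a median genomic length of 6404 bases against 20850 for named genes kept, and 36 of the 45 probes had a signal above the 90th percentile of features. Called higher in all 4 treatments of the signal were 7 genes: Atp5f1e, Atp5mg, Cox4i2, Cox7a2, Uqcr10, Uqcr11 and Uqcrc1. How many of all features were called higher in all 4 was not counted, so this number is not read as a result. Of these 4 treatments, the 75th percentile alone called a further 13 genes. These were Atp5f1a, Atp5f1b, Atp5f1d, Atp5if1, Atp5mc1, Atp5mc2, Atp5me, Atp5pd, Cox4i1, Cox6c, Cox7a2l, Cox8a and Uqcrh. In all 4, 25 of 45 genes had a higher mean, and the matching share of all features was not counted. All 27 were again called higher, and 0 lower, with normexp background correction (background 11.6% and 4.36%), with scaling by the median of detected probes (14.8% and 6.89%), with the mean over a gene's probes (12.7% and 8.02%) and with a filter on all 7 arrays (28 higher, 15.3% and 9.5%). Apart from normexp, these settings change the values of most members little, so keeping the calls is close to built in. Without a filter on dim probes 18 were called (4.39% and 1.41%). Of all calls, 62.2% were higher with the 75th percentile and 72.6% with normexp.

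**Figure D2:**
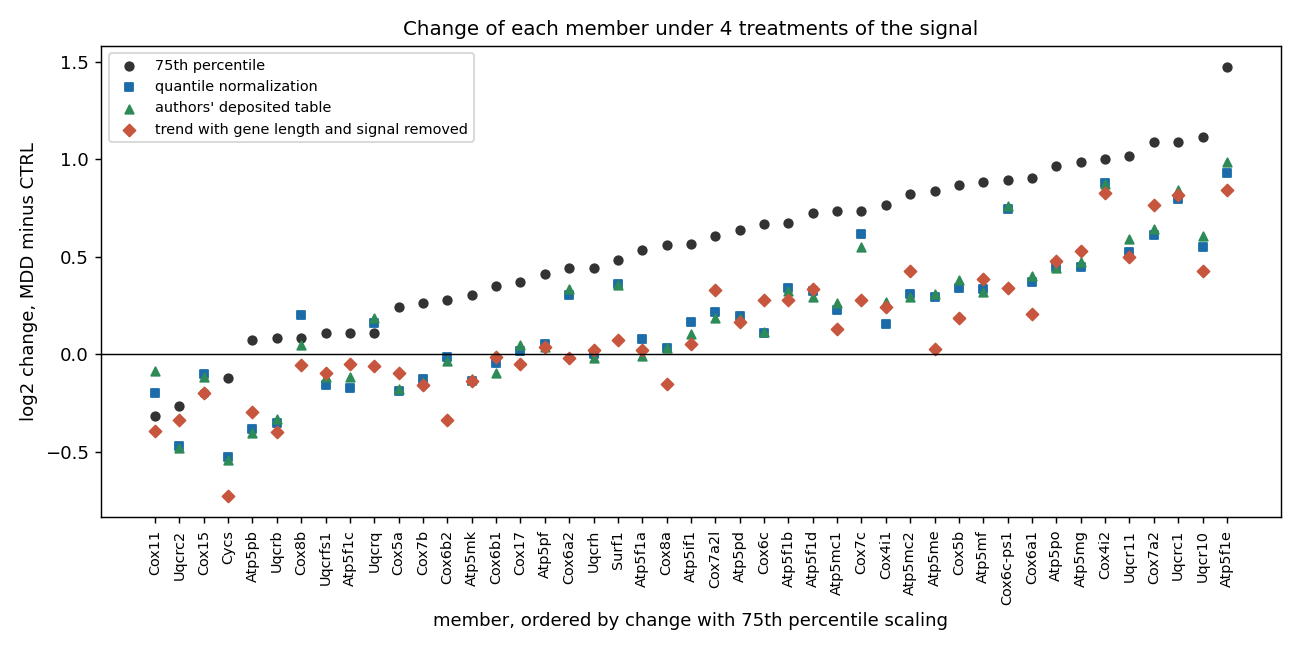
Log2 change, MDD minus CTRL, on the vertical axis for each of the 45 measured genes, ordered by the change with 75th percentile scaling, with one marker shape for each of the 4 treatments of the signal. Most markers of the other 3 treatments lie below the 75th percentile ones, and all markers of Cycs, Uqcrc2, Cox11 and Cox15 lie below 0.

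Levels in single arrays showed the same split. Relative to the CTRL mean, the median over the 45 genes was -0.01, 0.07, 0.02 and -0.06 in CTRL 1 to CTRL 4 and 0.57, 0.42 and 0.65 in MDD 1 to MDD 3. MDD 3 was the highest MDD array for 30 genes, and MDD 2 the lowest for 35. CTRL 1 to CTRL 3 lay in one row of the slide, and CTRL 4 and all MDD arrays in the other. CTRL 4, which shared its row with MDD, was the lowest CTRL array for 19 genes and the highest for 1. CTRL 1, in the other row, was the lowest for 17 and the highest for 12. With the row as a block, which sets CTRL 4 alone against the MDD arrays, 0 members were called, their median change was 0.68, and 27 had an unadjusted p under 0.05; over all features 0 were called higher and 1 lower (0.005%). Without CTRL 4, 15 of 45 members were called higher, where 4% of all features were. Leaving out CTRL 1, CTRL 2 or CTRL 3 gave 20, 20 and 19 members (6.97%, 6.74% and 5.42% of features). Leaving out MDD 1, MDD 2 or MDD 3 gave 21, 28 and 25 (8.86%, 14.5% and 8.78%). In all, 15 members were called with all arrays and in each of the 7 fits that left one array out. How many of all features were called in every one of these fits was not counted, so this number has no background beside it.

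**Figure D3:**
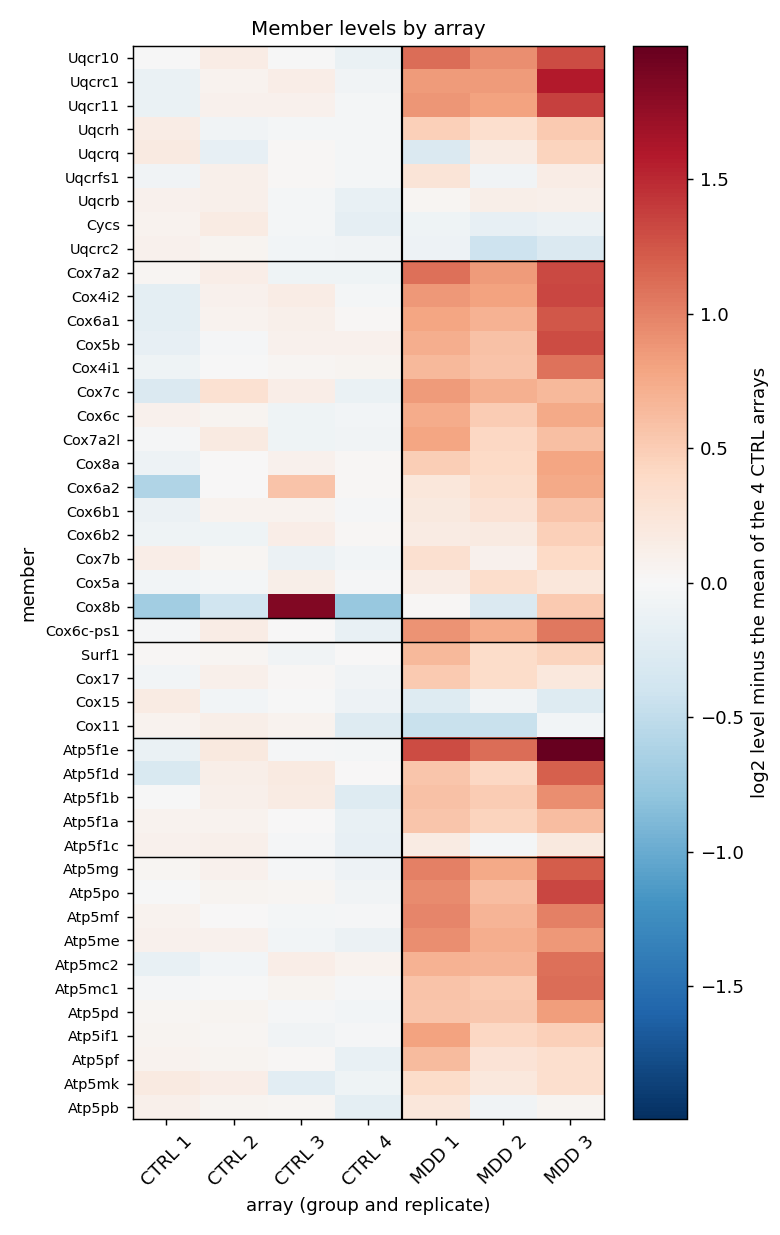
Level of each gene in each of the 7 arrays as log2 difference from the mean of the 4 CTRL arrays, with colour from blue (below) to red (above) and horizontal lines between structures. MDD columns are red for most genes, most strongly in MDD 3, and Cox8b in CTRL 3 is the darkest CTRL cell.

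Markers of microglia, the resident immune cells of the brain, moved in the same comparison. Of 10 measured, 7 were higher and 1, Cx3cr1, was lower, with a median log2 change of 0.79, and all 10 were kept as above background. Their summed level, in multiples of the 75th percentile, was 9.28 to 9.95 in CTRL and 13.2 to 18.4 in MDD. Granule neuron markers had 1 of 11 higher and 3 lower, with a summed level of 89.2 to 95.5 in CTRL and 72.5 to 90.3 in MDD. Their median log2 change was -0.41, and 10 of the 11 means were lower in MDD. Purkinje cell markers had 2 of 9 higher and 2 lower, with a median log2 change of 0.03. Their summed level did not overlap, at 362 to 402 in CTRL and 432 to 531 in MDD. The brightest of them, Aldoc, had a mean of 7.47 in CTRL and 7.85 in MDD and was not called. Summed levels of endothelial and mural markers did not overlap either, at 4.07 to 4.82 in CTRL and 4.97 to 5.68 in MDD. Of these, 1 of 7 was higher and 0 lower, with a median log2 change of 0.02. The sums of cerebellar region markers (0 of 4 called) were also apart, at 33.4 to 35.2 and 38.9 to 41.4. Their median log2 change was -0.28, however, and 3 of the 4 means were lower in MDD. A sum follows its brightest genes, here Cbln1, with a mean of 5.06 in CTRL and 5.31 in MDD. The summed levels of the remaining lists overlapped. Astrocyte and Bergmann glia markers had 1 of 8 higher and 0 lower, with sums of 80.9 to 90.1 in CTRL and 79.2 to 93.4 in MDD, and oligodendrocyte markers had 0 of 10 higher and 1 lower, at 255 to 273 and 241 to 370. None was called among choroid plexus (6 measured, 97.9 to 133 and 115 to 273), meninges (6 measured, 26.1 to 45.7 and 39.4 to 97.9) and erythroid markers (4 measured, 104 to 182 and 135 to 385). Over all features 12.7% were higher and 7.72% lower, so small counts in lists of this length are not read as results. The part of these cell types in the respiratory genes was not tested.

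Complex III and cytochrome c gave 4 of 9 genes higher, with a median log2 change of 0.11, and 3 of the 4 rose at least 2-fold. Uqcr10, a small subunit beside cytochrome c1, had levels of 5.43, 5.58, 5.43 and 5.29 in the 4 CTRL arrays and 6.55, 6.36 and 6.74 in the 3 MDD arrays. Every MDD array lay above every CTRL array, and Uqcr10 rose 2.17-fold (log2 1.12, SE 0.13, adjusted p = 0.00964). Uqcr11, another small subunit, stood at 4.38, 4.61, 4.61 and 4.49 in the 4 CTRL arrays and 5.40, 5.33 and 5.89 in the 3 MDD arrays. It rose 2.02-fold (log2 1.02, SE 0.16, adjusted p = 0.0103), without overlap between groups, and its 3 probes gave changes of 0.98 to 1.14. Uqcrc1, the first of the core proteins that face the matrix, was measured at 2.55, 2.76, 2.81 and 2.61 in the 4 CTRL arrays and 3.53, 3.53 and 4.26 in the 3 MDD arrays. MDD 3 stood highest, and the gene rose 2.13-fold (log2 1.09, SE 0.20, adjusted p = 0.0123). Uqcrh, the hinge protein that helps cytochrome c1 meet cytochrome c, gave 4.85, 4.63, 4.68 and 4.67 in the 4 CTRL arrays and 5.18, 5.05 and 5.23 in the 3 MDD arrays. Its rise was smaller, 1.36-fold (log2 0.45, SE 0.12, adjusted p = 0.0330), and it was lost without CTRL 2, CTRL 3, CTRL 4, MDD 1 or MDD 3 (adjusted p up to 0.0908). With the authors' deposited table its change was -0.02.

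Uqcrc2, the partner core protein of Uqcrc1, went the other way in sign. Its levels were 2.79, 2.76, 2.64 and 2.63 in the 4 CTRL arrays and 2.60, 2.30 and 2.42 in the 3 MDD arrays. The groups did not overlap and MDD was lower, as held for 3276 of 19991 features. The change of Uqcrc2, -0.26, did not pass (SE 0.12, adjusted p = 0.145). It was called lower with quantile normalization (-0.47) and in the authors' deposited table (-0.48). Whether Uqcrc1 and Uqcrc2 changed unequally was not tested. Cycs, which encodes cytochrome c, stood at 4.34, 4.43, 4.24 and 4.09 in the 4 CTRL arrays and 4.19, 4.12 and 4.15 in the 3 MDD arrays, and its groups overlapped. Its change was -0.12 (SE 0.12, adjusted p = 0.492), and it was called lower with quantile normalization (-0.52), in the authors' deposited table (-0.54) and with the trend removed (-0.72). RefSeq lists 7 Cycs pseudogenes, so the probe may read copies as well, and its 2 probes gave -0.12 and -0.38. The Rieske iron-sulphur protein gene Uqcrfs1 gave 0.11 (SE 0.12, adjusted p = 0.545), the quinone-site subunit Uqcrb 0.09 (SE 0.12, adjusted p = 0.611) and the small subunit Uqcrq 0.11 (SE 0.18, adjusted p = 0.685), and none of these passed. The 2 probes of Uqcrb differed in sign, 0.09 and -0.06.

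**Figure D4:**
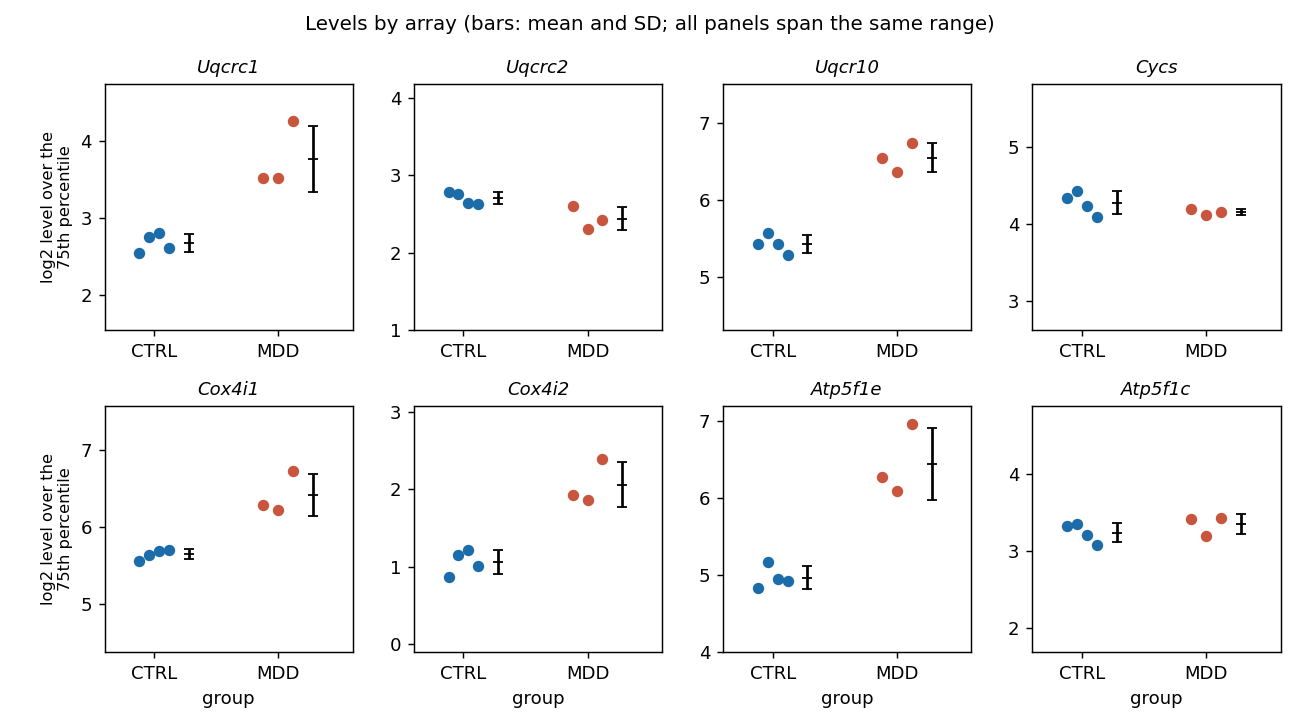
Log2 level over the array's 75th percentile for 8 genes in the 4 CTRL and 3 MDD arrays, one point per array, with the mean and SD beside each group and every panel spanning the same range. Uqcrc1, Uqcr10, Cox4i1, Cox4i2 and Atp5f1e are higher in all MDD arrays, Uqcrc2 is lower in all of them, and the groups of Cycs and Atp5f1c overlap.

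Complex IV subunits gave 9 of 15 higher, with a median log2 change of 0.61, and all 15 means were higher in MDD. The count was 3 with quantile normalization, 5 in the authors' deposited table, 2 with the trend removed and 5 without CTRL 4. Cox7a2, the common form of subunit VIIa, had levels of 4.44, 4.54, 4.32 and 4.31 in the 4 CTRL arrays and 5.50, 5.25 and 5.73 in the 3 MDD arrays. It rose 2.13-fold (log2 1.09, SE 0.14, adjusted p = 0.00964), with its second probe at 1.08. Cox4i2, a form of regulatory subunit IV known from lung and from low oxygen, was measured at 0.86, 1.14, 1.21 and 1.01 in the 4 CTRL arrays and 1.93, 1.86 and 2.40 in the 3 MDD arrays. MDD stood above CTRL in every array, 2.005-fold (log2 1.003, SE 0.16, adjusted p = 0.0107). Cox6a1, the widespread form of subunit VIa, gave 6.46, 6.72, 6.76 and 6.68 in the 4 CTRL arrays and 7.45, 7.34 and 7.89 in the 3 MDD arrays. Its rise was 1.87-fold (log2 0.91, SE 0.16, adjusted p = 0.0120), and MDD 3 was again the highest array. Cox6c, a small subunit with 3 pseudogenes in RefSeq, stood at 5.71, 5.67, 5.53 and 5.56 in the 4 CTRL arrays and 6.36, 6.13 and 6.38 in the 3 MDD arrays, a 1.59-fold rise (log2 0.67, SE 0.12, adjusted p = 0.0122). The probe of the pseudogene Cox6c-ps1 rose 1.86-fold (log2 0.90, SE 0.13, adjusted p = 0.00964), and signal of the parent gene on that probe cannot be set apart here. Cox4i1, the common form of subunit IV, was at 5.56, 5.65, 5.69 and 5.70 in the 4 CTRL arrays and 6.29, 6.23 and 6.73 in the 3 MDD arrays, 1.70-fold higher (log2 0.76, SE 0.15, adjusted p = 0.0145).

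A further 4 of these subunits rose, among them Cox5b, which binds zinc and helps to regulate the enzyme, 1.83-fold (adjusted p = 0.0182). Its call was lost without CTRL 4 (adjusted p = 0.0532). Cox7c, a small subunit, rose 1.67-fold (adjusted p = 0.0214), and its call was lost without CTRL 4 or MDD 1 (adjusted p up to 0.0660). Cox7a2l, which joins complexes III and IV into supercomplexes, had 3.67, 3.87, 3.61 and 3.62 in the 4 CTRL arrays and 4.49, 4.11 and 4.29 in the 3 MDD arrays, 1.52-fold higher (log2 0.61, SE 0.13, adjusted p = 0.0215). That call was lost without CTRL 1, CTRL 3, CTRL 4 or MDD 1 (adjusted p up to 0.0673). Cox8a, the widespread form of subunit VIII, had 6.08, 6.18, 6.26 and 6.20 in the 4 CTRL arrays and 6.67, 6.58 and 6.97 in the 3 MDD arrays, 1.48-fold higher (log2 0.56, SE 0.13, adjusted p = 0.0250). Without any one of the 4 CTRL arrays it was no longer called (adjusted p up to 0.0692), and its change was -0.15 with the trend removed. The groups of Cox7a2l and Cox8a did not overlap.

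The other 6 subunits did not pass. Cox6b1, which lies on the outer face near cytochrome c, had 3.78, 3.96, 3.96 and 3.87 in the 4 CTRL arrays and 4.09, 4.19 and 4.46 in the 3 MDD arrays, without overlap and with a change of 0.35 (SE 0.13, adjusted p = 0.0847). Its 3 probes gave 0.35, 0.36 and 0.43. Cox6b2, its testis form, had 3.09, 3.09, 3.31 and 3.20 in the 4 CTRL arrays and 3.34, 3.35 and 3.65 in the 3 MDD arrays, with a change of 0.28 (SE 0.13, adjusted p = 0.153). Cox5a, a matrix-facing subunit, gave 0.24 (SE 0.11, adjusted p = 0.153), and Cox7b, needed to assemble the complex, gave 0.27 (SE 0.13, adjusted p = 0.159). Cox6a2 and Cox8b, the heart and skeletal muscle forms of subunits VIa and VIII, were both highest among CTRL arrays in CTRL 3, the array with the high muscle genes. Cox6a2 stood at 1.08, 1.70, 2.25 and 1.70 in the 4 CTRL arrays and 1.91, 2.03 and 2.45 in the 3 MDD arrays, with a change of 0.45 (SE 0.26, adjusted p = 0.241), and with a change of 0.64 (adjusted p = 0.106) without CTRL 3. Cox8b stood at -4.29, -3.99, -1.75 and -4.34 in the 4 CTRL arrays and -3.57, -3.88 and -3.07 in the 3 MDD arrays, with a change of 0.09 (SE 0.59, adjusted p = 0.926), and with 0.70 (adjusted p = 0.0851) without CTRL 3. Their groups overlapped with all arrays. The part of muscle RNA in these levels was not tested.

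Where a subunit exists in 2 forms, the change of one was set against that of the other in each array by an exact two-sided permutation test over the 35 splits of the arrays, which cannot give a p below 0.0286. Of 6 pairs, 0 passed after Benjamini-Hochberg adjustment over the pairs. A lone pair at that lowest p adjusts to 0.171, so it could pass only if several others were near the floor too. The count of 0 therefore says little. The 95% intervals are t intervals with a pooled variance and do not come from the permutation test. They assume equal spread, while the SD of Cox4i2 minus Cox4i1 was 0.12 in CTRL and 0.02 in MDD. Cox4i2 changed by 0.24 more than Cox4i1 (95% interval 0.06 to 0.42, exact p = 0.0571, adjusted 0.171), with no overlap between groups. Cox7a2l changed by less than Cox7a2 (difference -0.48, 95% interval -0.76 to -0.21, exact p = 0.0286, adjusted 0.171), also with no overlap. Cox6a2 against Cox6a1 differed by -0.46 (-1.03 to 0.11, exact p = 0.0857), and Cox8b against Cox8a by -0.47 (-2.29 to 1.34, exact p = 0.886), the widest interval, where CTRL 3 stood apart. Without CTRL 3 the last difference was 0.11. Cox6b2 against Cox6b1 gave -0.08 (-0.24 to 0.09, exact p = 0.286). The Atp5mc2 and Atp5mc1 genes encode the same mature ring subunit with different import sequences, and their changes differed by 0.09 (-0.11 to 0.28, exact p = 0.314). These intervals leave room for unequal change in each pair. Several values moved with the treatment of the signal. Again 0 pairs passed in any of them, which the lowest possible p alone makes likely. Cox4i2 against Cox4i1 gave 0.72 with quantile normalization, 0.60 in the authors' deposited table and 0.59 with the trend removed, and Cox6a2 against Cox6a1 gave -0.066, -0.068 and -0.23. With the trend removed, Cox6b2 against Cox6b1 gave -0.33 and Atp5mc2 against Atp5mc1 0.30.

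Of the complex IV assembly factors 1 of 4 rose, where 12.7% of all features did, and a count this small is not read as a result. Surf1, needed to place haem a in the catalytic subunit and mutated in a form of Leigh syndrome, had 1.25, 1.25, 1.14 and 1.23 in the 4 CTRL arrays and 1.87, 1.58 and 1.65 in the 3 MDD arrays. All MDD arrays were above all CTRL arrays, a 1.40-fold rise (log2 0.48, SE 0.12, adjusted p = 0.0276), lost without any one CTRL array or MDD 1 (adjusted p up to 0.0778). Cox17, the copper chaperone of the complex, had 3.36, 3.52, 3.43 and 3.35 in the 4 CTRL arrays and 3.94, 3.78 and 3.63 in the 3 MDD arrays, also without overlap, with a change of 0.37 (SE 0.12, adjusted p = 0.0643). Cox11, which delivers copper to the catalytic subunit, stood at -3.30, -3.26, -3.31 and -3.63 in the 4 CTRL arrays and -3.82, -3.83 and -3.43 in the 3 MDD arrays, and Cox15, which makes haem a, at -2.49, -2.70, -2.65 and -2.74 in the 4 CTRL arrays and -2.90, -2.72 and -2.90 in the 3 MDD arrays. Neither passed, with changes of -0.31 (SE 0.15, adjusted p = 0.165) and -0.20 (SE 0.12, adjusted p = 0.256). The 3 probes of Cox11 were all negative, from -0.64 to -0.19. Counts in this group of 4 ranged from 0 to 2 when single arrays were left out.

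The F1 part of ATP synthase had 4 of 5 subunits higher, with a median log2 change of 0.67. Atp5f1e, the epsilon subunit of the central stalk, had 4.83, 5.17, 4.94 and 4.92 in the 4 CTRL arrays and 6.27, 6.08 and 6.96 in the 3 MDD arrays. It rose 2.77-fold (log2 1.47, SE 0.21, adjusted p = 0.00964), the highest change of the 45 genes with every treatment of the signal run here. MDD 3 stood well above MDD 1 and MDD 2, and leaving it out gave 1.21. Atp5f1a, the alpha subunit, had 6.55, 6.54, 6.49 and 6.33 in the 4 CTRL arrays and 7.02, 6.92 and 7.09 in the 3 MDD arrays, a 1.45-fold rise (log2 0.54, SE 0.12, adjusted p = 0.0198). Atp5f1b, the catalytic beta subunit, had 3.13, 3.24, 3.31 and 2.88 in the 4 CTRL arrays and 3.72, 3.65 and 4.07 in the 3 MDD arrays, a 1.59-fold rise (log2 0.67, SE 0.16, adjusted p = 0.0245). Atp5f1d, the delta subunit beside epsilon, had 3.37, 3.78, 3.85 and 3.67 in the 4 CTRL arrays and 4.22, 4.09 and 4.87 in the 3 MDD arrays, a 1.65-fold rise (log2 0.72, SE 0.21, adjusted p = 0.0441). The alpha call was lost without CTRL 3 or CTRL 4 (adjusted p up to 0.0652), beta without CTRL 1, CTRL 2, CTRL 4 or MDD 3 (0.0686), and delta without any one CTRL array, MDD 1 or MDD 3 (0.0976). Atp5f1c, the gamma subunit that forms the rotating shaft, had 3.32, 3.35, 3.21 and 3.08 in the 4 CTRL arrays and 3.41, 3.20 and 3.43 in the 3 MDD arrays. Its groups overlapped, with a change of 0.11 (SE 0.13, adjusted p = 0.550), and RefSeq lists 4 pseudogenes of it.

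In the Fo part, the outer stalk and the inhibitor, 8 of 11 genes rose, with a median log2 change of 0.74, and all 11 means were higher in MDD. For ATP synthase as a whole the count of 12 of 16 became 3 with quantile normalization, in the authors' deposited table and with the trend removed, and to 6 without CTRL 4. Subunits e, f and g, small membrane proteins tied to dimers of the enzyme, moved together. Atp5mg had 5.16, 5.20, 5.09 and 5.003 in the 4 CTRL arrays and 6.11, 5.87 and 6.32 in the 3 MDD arrays, a 1.98-fold rise (log2 0.99, SE 0.14, adjusted p = 0.00964), with its second probe at 1.07 and 8 pseudogenes in RefSeq. Atp5me had 5.999, 5.999, 5.87 and 5.80 in the 4 CTRL arrays and 6.85, 6.64 and 6.78 in the 3 MDD arrays, a 1.79-fold rise (log2 0.84, SE 0.12, adjusted p = 0.00964). Atp5mf had 5.43, 5.37, 5.32 and 5.34 in the 4 CTRL arrays and 6.35, 6.04 and 6.37 in the 3 MDD arrays, a 1.85-fold rise (log2 0.89, SE 0.12, adjusted p = 0.00964). In none of the 3 did the groups overlap, but of the 4 treatments of the signal Atp5me was called only with the 75th percentile, and its lowest change among them was 0.03. Atp5po, the stalk protein OSCP, had 4.88, 4.95, 4.93 and 4.82 in the 4 CTRL arrays and 5.83, 5.51 and 6.23 in the 3 MDD arrays, a 1.95-fold rise (log2 0.96, SE 0.17, adjusted p = 0.0116). Atp5mc2 of the proton-carrying ring had 4.88, 4.96, 5.15 and 5.09 in the 4 CTRL arrays and 5.71, 5.70 and 6.12 in the 3 MDD arrays, a 1.77-fold rise (log2 0.82, SE 0.15, adjusted p = 0.0121). Its sister gene Atp5mc1 had 4.87, 4.90, 4.95 and 4.88 in the 4 CTRL arrays and 5.47, 5.42 and 6.02 in the 3 MDD arrays, 1.67-fold higher (log2 0.74, SE 0.16, adjusted p = 0.0210), and lost its call without any one CTRL array (adjusted p up to 0.0620). CTRL arrays agreed closely for Atp5mc1, with an SD of 0.03, against 0.34 in MDD. Atp5mc1 and Atp5mc2 were called with the 75th percentile only of the 4 treatments.

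Of the remaining stalk and regulatory genes, Atp5pd, a stalk subunit, rose 1.56-fold (adjusted p = 0.0142), and its call was lost without CTRL 4 (adjusted p = 0.0523). Atp5if1, the inhibitor that blocks ATP hydrolysis by the enzyme, rose 1.48-fold (adjusted p = 0.0239), lost without any one CTRL array or MDD 1 (adjusted p up to 0.0702). Coupling factor 6, Atp5pf, did not pass, with a change of 0.41 (SE 0.13, adjusted p = 0.0563). Neither did Atp5mk, at 0.30 (SE 0.13, adjusted p = 0.135), nor Atp5pb, subunit b of the same stalk, at 0.07 (SE 0.13, adjusted p = 0.709). Atp5pb was called lower in the authors' deposited table (-0.40). Across 44 genes, leaving out the pseudogene, the change had a Spearman rho of 0.52 with the mean level and -0.18 with log2 gene length, given as a description since the genes share the same arrays and probe design.

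Other lists of energy metabolism, drawn up with earlier results of these data known, are given by their counts. Over all features 12.7% were higher and 7.72% lower. With the trend removed it was 6.58% and 4.70% of the 11965 named genes tested there. Small counts in short lists are not read as results about them. Complex I and II genes, chosen by symbol with some assembly factors among them, had 27 of 42 higher and 0 lower, with a median log2 change of 0.55, and 7 higher and 1 lower with the trend removed (median 0.19). They were led by Ndufa2 (log2 1.02, SE 0.14, adjusted p = 0.00964), Sdhc (log2 0.82, SE 0.11, adjusted p = 0.00964) and Ndufaf8 (log2 1.01, SE 0.14, adjusted p = 0.00964). Complex III assembly had 4 of 6 higher and 0 lower (median 0.51), with Uqcc2, needed to make cytochrome b, 2.48-fold higher (log2 1.31, SE 0.26, adjusted p = 0.0161), Bcs1l, which inserts the Rieske protein, at log2 0.53, SE 0.12, adjusted p = 0.0243, and Uqcc3 at log2 0.54, SE 0.13, adjusted p = 0.0259. The change of Uqcc3 was -0.03 with the trend removed, where 3 of the 6 were called higher. Further complex IV assembly and associated genes had 4 of 17 higher and 0 lower (median 0.13), but 0 higher and 2 lower with the trend removed. The first 3 of the 4 were Coa3 (log2 0.68, SE 0.14, adjusted p = 0.0185), Higd2a (log2 0.69, SE 0.16, adjusted p = 0.0223) and Cox19 (log2 0.44, SE 0.12, adjusted p = 0.0388). ATP synthase assembly had 1 of 5 higher, Fmc1 (log2 0.95, SE 0.12, adjusted p = 0.00964), and 1 lower, Atpaf1 (log2 -0.48, SE 0.14, adjusted p = 0.0469), which helps F1 to form. Atpaf1 was not called with quantile normalization (-0.34, adjusted p = 0.0897), in the authors' deposited table (-0.25, 0.119), with normexp (-0.22, 0.312), with scaling by the median of detected probes (-0.44, 0.0532), with the trend removed (-0.37, 0.0877) or without a filter (0.0949). Among genes that supply cytochrome c and haem a, 2 of 4 were higher, Fdx2 (log2 0.61, SE 0.14, adjusted p = 0.0226) and Fdx1 (log2 0.42, SE 0.12, adjusted p = 0.0450), and 0 higher and 1 lower with the trend removed.

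Differences between lists were not tested. The same shares of all features, 12.7% higher and 7.72% lower, stand beside the counts below, and small counts are not read as results. Citric acid cycle genes had 0 of 15 higher and 1 lower, Sucla2 (log2 -0.48, SE 0.13, adjusted p = 0.0341), a subunit of succinyl-CoA ligase, with a median of 0.04. Glycolysis had 4 of 16 higher and 0 lower (median 0.41), led by Eno1 (log2 0.86, SE 0.16, adjusted p = 0.0140), Tpi1 (log2 0.76, SE 0.16, adjusted p = 0.0189) and Ldha (log2 0.64, SE 0.17, adjusted p = 0.0326). With the trend removed 1 was higher. Tpi1 was not called with quantile normalization (0.31, adjusted p = 0.0952) or in the authors' deposited table (0.30, 0.0794), nor was Ldha (0.20 and 0.325, then 0.20 and 0.271). Genes that export ATP or shuttle its energy had 1 of 7 higher, the mitochondrial creatine kinase Ckmt1 (log2 0.83, SE 0.17, adjusted p = 0.0160), with 0 higher and 1 lower once the trend was removed. Regulators of mitochondrial biogenesis had 0 of 14 higher and 2 lower, with a median of -0.23, and 3 lower with the trend removed. The 2 were Tfb2m, a factor of mitochondrial transcription (log2 -0.51, SE 0.11, adjusted p = 0.0186), and Gabpa, the DNA-binding subunit of GABP (log2 -0.57, SE 0.13, adjusted p = 0.0219). Nrf1 itself had a difference of -0.07 (adjusted p = 0.787), named here because its letters were searched in the promoters. Yy1 had a difference of -0.37 (adjusted p = 0.108), named for the same reason. Of the 20 genes named as passing in these lists, 9 were called with all 4 treatments of the signal, and 5 (Higd2a, Cox19, Atpaf1, Tpi1 and Ldha) with the 75th percentile only. Ndufa2, Sdhc, Ndufaf8, Fmc1 and Eno1 were called whichever array was left out, and the other 15 lost their call without CTRL 4 (adjusted p 0.0513 to 0.115 by limma), 12 of them without at least one further array as well.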

How the data were processed

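Cerebellar RNA of 4 CTRL and 3 MDD pups was measured on 1-colour Agilent arrays of design 028279. Per the file headers, the deposited scanner tables came from Feature Extraction 10.7.3.1 and hold linear intensities and 0 or 1 flags that are scored by the scanner software. The processed signal is background-subtracted and not normalized between arrays. A further deposited table holds the authors' normalized intensities, with a method not stated in the labels or headers, and its columns show the group only.

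The main value was log2 of the processed signal minus the array's 75th percentile. Outlier spots were left out and spots of a probe averaged. Probes were kept where at least 50% of their spots passed the well-above-background flag on 3 or more of the 7 arrays (22255 of 30367 probes). Symbols came from matching accessions to RefSeq genes of GRCr8, which named 18355 probes. The kept probe with the highest mean stood for a gene, giving 11966 named genes and 8025 unnamed probes. The comparison used lmFit and eBayes of limma 3.58.1 (R 4.3.3, two-sided) with Benjamini-Hochberg adjustment at 0.05, and the code was tested on simulated data. Isoform pairs were compared by exact permutation over 35 splits. Normexp with an offset of 50 used the median spot signal in place of the planned mean signal. All arrays carry 1 slide and 1 scan time.

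Every member is named. Values in each array are given for up to 5 members of a structure by smallest p and for isoform pairs, and each related list is represented by its called members with the smallest p, at most 3. Exceptions are Cycs and Cx3cr1, the muscle genes, Nrf1 and Yy1, chosen after their values were seen. The members and lists were chosen with earlier results of these data known. One marker list is not reported here. Alternatives were other scalings, background correction, filters, probe rules, blocks and leaving out single arrays.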

Additional observations from a re-analysis of the deposited data

Results flagged for a closer look

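Within the 4 CTRL arrays, 51 sets of values (each measured member and each isoform pair) were examined for one array far from the other 3, and 4 were found, where chance alone marks about 1 set in 20. Cox8b stood at -1.75 in CTRL 3 and between -4.34 and -3.99 in the others. The difference of Cox8b and Cox8a was -8.01 in the same array and -10.54 to -10.16 elsewhere, so these 2 findings share a value. Cox5a was 4.41 in CTRL 3 and 4.23 to 4.26 in the others. Cox11 was -3.63 in CTRL 4 and -3.31 to -3.26 in the others.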

How the results depend on the processing

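Scaling by the median of detected probes, normexp, a filter on all 7 arrays and the mean over a gene's probes kept all 27 higher calls, and without a filter 18 of the 27 were called. Apart from normexp, these settings leave the values of most members unchanged or shifted by a constant per array. Keeping the calls in them is therefore close to built in. With quantile normalization, 10 members were higher and 2 lower (complex IV subunits 3, assembly factors 0, ATP synthase 3, median change 0.20). In the authors' deposited table, 13 were higher and 3 lower (complex IV subunits 5, ATP synthase 3, median 0.19). With the trend with gene length and signal removed, 8 were higher and 1 lower (complex IV subunits 2, assembly factors 0, ATP synthase 3, median 0.055). Without a filter 0 assembly factors were higher. With the slide row as a block 0 were higher in every structure, with a median of 0.68. The cause of these differences was not tested.

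The labels do not say that the replicate numbers pair the samples. Deviations from the group means of same-numbered arrays correlated at 0.09, -0.18 and 0.22, and CTRL 1 correlated best with MDD 2. Such deviations cancel within a group and the pairs are few, so they cannot settle whether the numbers pair the samples. With the replicate block 0 of 19991 features were called by limma, so 0 members of any structure were higher, while 27 members had an unadjusted p under 0.05. Numbers 1 to 3 alone enter that contrast.

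Signs turned for some members, most of them not called; Cox8a, Atp5f1a, Uqcrh and the related gene Uqcc3 had been called higher. With quantile normalization this held for Uqcrfs1 (-0.16), Uqcrb (-0.35), Cox6b1 (-0.046), Cox6b2 (-0.013), Cox5a (-0.19), Cox7b (-0.12), Atp5f1c (-0.17), Atp5mk (-0.14), Atp5pb (-0.38), Cox6b2 minus Cox6b1 (0.033) and Cox8b minus Cox8a (0.17). In the authors' deposited table it held for Uqcrh (-0.020), Uqcrfs1 (-0.12), Uqcrb (-0.33), Cox6b1 (-0.093), Cox6b2 (-0.032), Cox5a (-0.18), Cox7b (-0.14), Atp5f1a (-0.0089), Atp5f1c (-0.11), Atp5mk (-0.12), Atp5pb (-0.40), Cox6b2 minus Cox6b1 (0.061) and Cox8b minus Cox8a (0.013). With the trend removed it held for Uqcrfs1 (-0.10), Uqcrb (-0.40), Uqcrq (-0.057), Cox8a (-0.15), Cox6b1 (-0.013), Cox6b2 (-0.34), Cox5a (-0.095), Cox7b (-0.16), Cox6a2 (-0.018), Cox8b (-0.055), Cox17 (-0.048), Atp5f1c (-0.050), Atp5mk (-0.14), Atp5pb (-0.29), Uqcc3 (-0.025) and Cox8b minus Cox8a (0.095). The mean over probes turned Atp5mc2 minus Atp5mc1 (-0.0087), the replicate block turned Cox8b (-0.16), and the row block turned Cycs (0.066).

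Leaving out single arrays gave 15 to 28 members higher (4% to 14.5% of all features) and 0 lower (1.12% to 11.7%), a median of 0.51 to 0.64, and 3 to 4 higher in complex III and cytochrome c, 5 to 9 among complex IV subunits, 0 to 2 among assembly factors and 6 to 13 in ATP synthase. Signs turned within the range of such fits for Cox8b (-0.16 without CTRL 4 to 0.70 without CTRL 3, and negative also without CTRL 1, CTRL 2 or MDD 3), Cox8b minus Cox8a (-0.73 without CTRL 4 to 0.11 without CTRL 3), Atp5pb (-0.0033 without MDD 1 to 0.14 without MDD 2) and Uqcrq (-0.061 without MDD 3 to 0.31 without MDD 1). Cox8c was not well above background on any array, so nothing is said of it.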
